A study of Homo sapiens with 12 samples.

Results

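The subunits of the SWI/SNF chromatin remodelling complexes were followed across 12 RNA-seq libraries of Raji, a B-cell line derived from a human Burkitt lymphoma. The 30 subunit genes were found by gene identifier, so each was matched to its symbol, and they are 30 of the 60707 genes in the count table. The libraries fall into 4 groups of 3, all taken at 24 h, all labelled Smarca4+/+ and all from a line with an auxin-inducible degron on the SMARCA4 protein: GFP-low cells given FX1, GFP-low cells given DMSO, GFP-high cells given FX1 and GFP-high cells given DMSO. FX1 is a small molecule that binds BCL6, the transcriptional repressor of germinal-centre B cells, and DMSO is its solvent (the titles call the DMSO libraries untreated). The design asks what FX1 does to gene expression when SMARCA4 has been degraded. Neither the auxin treatment of each gate nor the link between the GFP signal and SMARCA4 protein is spelled out in the labels, so the gates are called GFP-low and GFP-high throughout. A degron removes protein and not transcript, and the SMARCA4 RNA level is therefore no check of the gates. All values come from 1 cell line, and how many degron clones were used is not given in the labels.

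SWI/SNF (also called BAF) complexes use ATP to slide and evict nucleosomes, which opens enhancers and promoters to transcription factors. Each complex holds either SMARCA4 (BRG1) or SMARCA2 (BRM) as its ATPase, and other subunits sort the complexes into canonical BAF (cBAF, with ARID1A or ARID1B and a DPF protein), PBAF (with ARID2, PBRM1, PHF10 and BRD7) and noncanonical BAF (ncBAF, with BICRA or BICRAL and BRD9). Many subunits exist as paralogs that replace each other in the complex, and ARID1A, SMARCA4, BCL7A and BCL11A are known for recurrent alterations in B-cell lymphoma.

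Reference promoter sequence of 5 subunits is shown here because base composition is taken up again below. These genes cover an ATPase and subunits that moved in opposite directions with FX1. They do not include the subunit with the largest fall, BCL11A. Each run is the 150 bases just before the RefSeq start, read 5′ to 3′ on the strand of the gene (RefSeq, build GRCh38.p14), and the capitals mark CpG dinucleotides.
SMARCA4 promoter, chr19:10960880-10961029, plus strand: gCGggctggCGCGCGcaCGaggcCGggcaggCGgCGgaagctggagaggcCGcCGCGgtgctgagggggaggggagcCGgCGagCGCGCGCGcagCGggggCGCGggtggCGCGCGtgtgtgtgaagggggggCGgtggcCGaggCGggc
BICRA promoter, chr19:47608046-47608195, plus strand: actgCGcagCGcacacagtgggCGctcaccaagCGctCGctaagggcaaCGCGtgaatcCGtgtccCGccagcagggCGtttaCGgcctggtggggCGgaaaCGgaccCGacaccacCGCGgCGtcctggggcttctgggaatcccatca
BCL7C promoter, chr16:30894078-30894227, minus strand: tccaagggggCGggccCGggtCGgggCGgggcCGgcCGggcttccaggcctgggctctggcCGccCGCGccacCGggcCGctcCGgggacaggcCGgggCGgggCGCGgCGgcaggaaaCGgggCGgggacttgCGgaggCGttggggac
BRD7 promoter, chr16:50368989-50369138, minus strand: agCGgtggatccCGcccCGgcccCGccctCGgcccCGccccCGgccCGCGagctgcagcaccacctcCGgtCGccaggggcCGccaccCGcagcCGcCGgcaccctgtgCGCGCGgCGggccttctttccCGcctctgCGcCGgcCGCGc
PBRM1 promoter, chr3:52685914-52686063, minus strand: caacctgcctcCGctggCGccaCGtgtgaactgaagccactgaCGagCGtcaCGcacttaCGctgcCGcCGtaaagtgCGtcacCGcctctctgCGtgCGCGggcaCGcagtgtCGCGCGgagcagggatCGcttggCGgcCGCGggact
The BCL7C and BRD7 stretches have the same GC content, 83.3%, as has that of SMARCA4. The BICRA stretch has 67.3% GC with 17 CpG, and the PBRM1 stretch 68.7% GC with 22 CpG. BICRA and BCL7C RNA was higher and BRD7 and PBRM1 RNA lower with FX1, as given below.

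Libraries held 20454028 to 42556661 counts, and levels below are CPM, the count of a gene relative to the TMM-scaled total of its library. The labels name no molecular identifiers, and PCR copies are not independent molecules, so counting error understates the error of a value. Since no label ties the 3 libraries of a group to separate cultures, the p-values cover only the spread among these libraries, which may be technical. The 6 markers of B cells were all detected and summed to 1790 CPM in GFP-low FX1 libraries, 2360 to 2370 CPM in GFP-low DMSO libraries, 2210 to 2230 CPM in GFP-high FX1 libraries and 2650 to 2670 CPM in GFP-high DMSO libraries. Markers of T and NK cells summed to 2.34 to 6.67 CPM over all libraries, with CD2 at 0 in all but the GFP-high DMSO group, and those of epithelial and stromal cells to 8.15 to 17.3 CPM. Myeloid markers summed to 5.99 to 6.39 CPM in GFP-low FX1 libraries and to 2 to 3.56 CPM in the other groups. Single genes carried these sums, with ITGAM at 5.05 CPM in GFP-low FX1 cells and COL1A1 at 8.44 to 16.3 CPM (group means). Markers of a list did not move together. From GFP-low DMSO to GFP-low FX1 cells ITGAM went from 1.91 to 5.05 CPM but CSF1R from 0.951 to 0.439 CPM. Likewise CD79B went from 262 to 350 CPM but CD22 from 770 to 353 CPM. Mitochondrial transcripts took 5.09% ± 0.037 of the counts in GFP-low FX1, 4.76% ± 0.064 in GFP-low DMSO, 4.28% ± 0.043 in GFP-high FX1 and 7.88% ± 0.034 in GFP-high DMSO libraries (SD, n = 3 each). The part of these shares in the results below was not tested, except that a scaling without mitochondrial genes is among the settings tried.

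Of the 30 subunits, 28 had enough counts to be tested. ACTL6B, the neuronal actin-like subunit, had 0 to 4 counts per library, and BCL11B, the T-cell paralog of BCL11A, had 0 to 1 count. Per kilobase of exon, SMARCC1, a scaffold subunit on which the complex is assembled, was the most abundant subunit in every group, with group means of 51.3 to 59.8 CPM per kb. Group means of SMARCD2 (26.2 to 29.9 CPM per kb), ARID1A (21.7 to 32.6 CPM per kb) and SMARCA4 (24.6 to 29.5 CPM per kb) were also high, and the order below SMARCC1 changed between groups. SS18 was above SMARCA4 in GFP-high FX1 cells (25.4 and 25.1 CPM per kb) and PBRM1 above ARID1A in GFP-high DMSO cells (22.4 and 21.7 CPM per kb). Exon length stands here for all annotated exons of a gene; with the length of the longest transcript in its place, SMARCA4 ranked 1 and SMARCC1 ranked 2. Lowest were DPF3 (0.15 to 0.173 CPM per kb), SMARCD3 (0.247 to 0.547 CPM per kb) and DPF1 (0.685 to 0.898 CPM per kb), with 46 to 121, 25 to 122 and 82 to 212 counts per library. Fewer cells of a type and less RNA per cell cannot be told apart in these bulk libraries.

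With FX1, more subunit transcripts were higher than lower in both gates, and changes were small. In GFP-low cells 18 of 28 subunits were called higher and 7 lower by edgeR's quasi-likelihood test (Benjamini-Hochberg adjusted p below 0.05 over 17859 genes), where 33.7% of all genes tested were higher and 34.3% lower (68% in either direction). In GFP-high cells 13 were higher and 7 lower, against 33.8% and 34.6% of all genes (68.4% in either direction). Such shares depend on how many counts the genes have. With a floor of 50 counts in 3 libraries, 12809 genes were tested. In GFP-low cells 5134 of them were higher and 5095 lower, beside 19 and 8 of 28 subunits. In GFP-high cells 4988 were higher and 5133 lower, beside 12 and 9 of 28 subunits. The median subunit changed by 0.24 (log2) in GFP-low and by 0.03 in GFP-high cells, beside -0.01 over all genes in each. Called folds lay between 0.712 and 1.79 in GFP-low and between 0.655 and 1.99 in GFP-high cells, so no called subunit reached 2-fold with FX1. FX1 and DMSO ranges did not overlap for 27 of 28 subunits in GFP-low and 22 of 28 in GFP-high cells. The shares of all genes without overlap were 69.6% and 70.2%.

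The contrasts within each gate share no library, and 19 of 28 subunits (67.9%) were called in the same direction in both, compared with 52.8% of all genes. The 13 called higher in both gates were ARID1A, ARID1B, DPF2, BICRA, BRD9, BCL7B, BCL7C, SMARCA2, SMARCB1, SMARCC2, SMARCD1, SS18 and SS18L1. The 6 called lower in both were BCL11A, BICRAL, BRD7, PBRM1, PHF10 and SMARCE1. None was called in opposite directions, against 3.22% of all genes. ARID2, BCL7A, DPF1, SMARCA4 and SMARCD2 were called higher in GFP-low cells and not called in GFP-high cells, whereas ACTL6A was called lower in GFP-low cells only and SMARCC1 in GFP-high cells only, which by itself does not show that the gates differ.

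These changes moved with the base composition of the transcripts. Across the 28 subunits Spearman's rho between the log2 change with FX1 and the GC content of the longest transcript was 0.698 in GFP-low and 0.541 in GFP-high cells, next to 0.342 and 0.146 over all genes. It is a correlation across genes measured in the same libraries, which are not independent, and is given as a description. When a smooth trend on transcript GC content and length was taken out of every library, 13 subunits were higher and 10 lower in GFP-low cells (33.2% and 32.1% of all genes), and 10 were higher and 12 lower in GFP-high cells (33.2% and 34.7% of all genes). With the trend removed, the calls of ACTL6A, DPF1 and PHF10 in GFP-low cells and of BRD9 and SS18L1 in GFP-high cells were lost. Those of BCL7A, SMARCA4, SMARCB1 and SMARCD2 in GFP-low cells and of SMARCB1 and SMARCC2 in GFP-high cells turned to lower. Values obtained this way are given below as trend-removed changes. Whether the trend is technical was not tested.

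**Figure D1:**
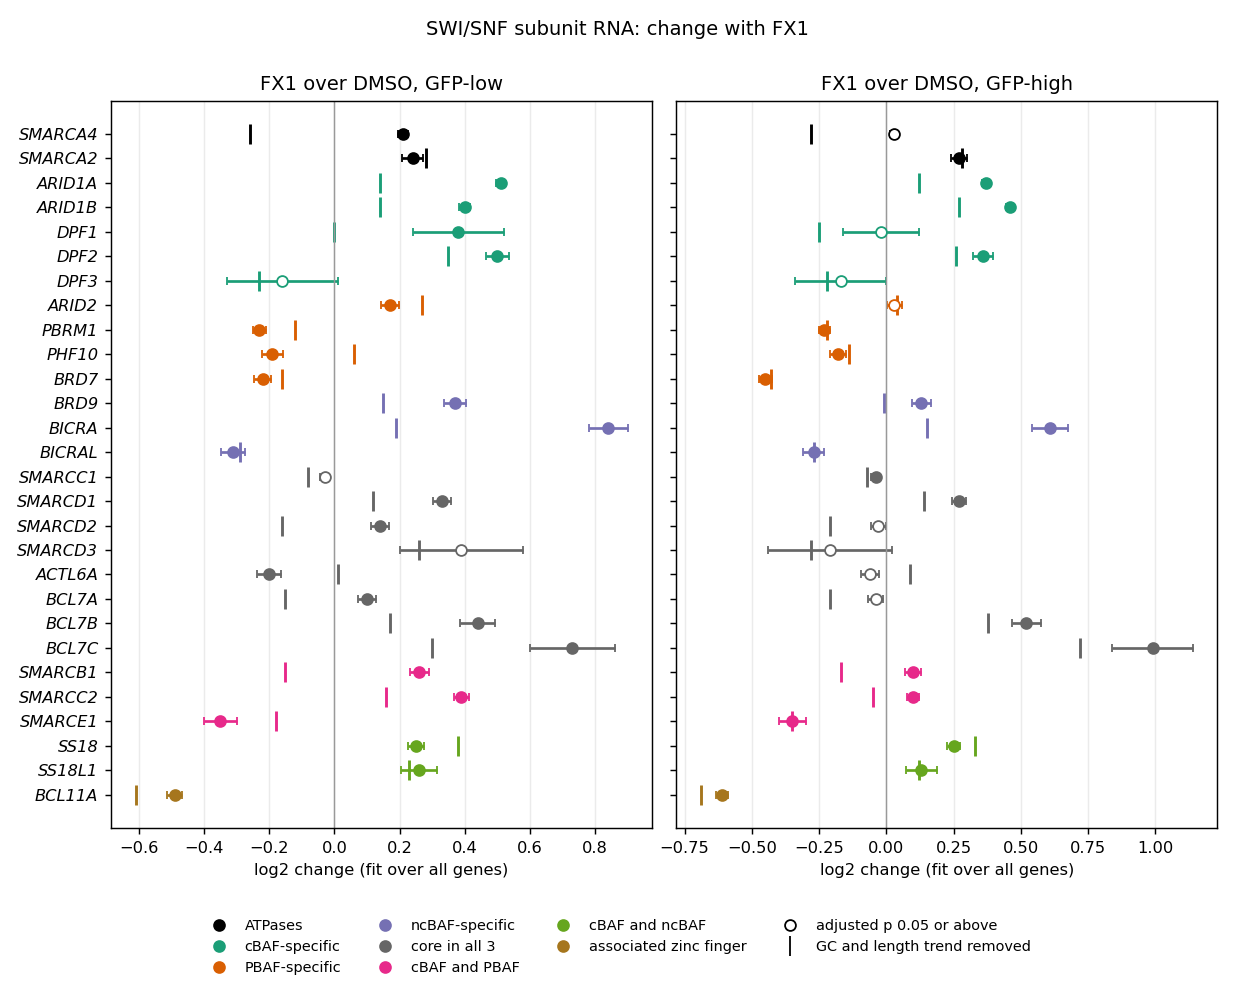
Log2 change with FX1 over DMSO (x axis, with standard error) of the 28 tested SWI/SNF subunits (rows) in GFP-low cells and in GFP-high cells, coloured by subcomplex, with filled points for adjusted p below 0.05, open points otherwise and a vertical tick for the trend-removed change. BICRA and BCL7C lie farthest to the right in both gates and BCL11A farthest to the left.

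Of the ATPases, SMARCA2 was called higher with FX1 in both gates and SMARCA4 in GFP-low cells, the SMARCA4 sign turning when the trend was removed. SMARCA4 (ENSG00000127616, chr19:10960932-11079426, plus strand, hg38) read 455, 460.4 and 452 CPM in GFP-low FX1 libraries, against 392, 392 and 401 CPM in GFP-low DMSO libraries. In GFP-high cells it read 386, 389 and 391 CPM in FX1 libraries, against 384, 382 and 376 CPM in DMSO libraries. The GFP-low FX1 libraries thus stood well above all others, and the ranges of the other 3 groups lay close together without overlapping. The change with FX1 was 0.21 ± 0.015 (edgeR adjusted p = 1.2e-31) in GFP-low and 0.03 ± 0.015 (edgeR adjusted p = 0.077) in GFP-high cells. The adjusted p in GFP-high cells lay between 0.022 and 0.046 without GFP-low FX1 replicate 2 or 3, GFP-low DMSO replicate 1 or 2, GFP-high FX1 replicate 1 or GFP-high DMSO replicate 1, and it rounded to 0.05, just under the threshold, with DESeq2's size factors. The sign of the SMARCA4 change hung on the base-composition trend, since the trend-removed change was -0.26 (edgeR adjusted p = 1.8e-41) in GFP-low and -0.28 (edgeR adjusted p = 6.7e-46) in GFP-high cells.

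SMARCA2, the alternative ATPase (ENSG00000080503, chr9:1980290-2193624, plus strand, hg38), read 85.9, 81.7 and 86.1 CPM in GFP-low FX1 libraries, against 72.1, 70.9 and 72.4 CPM in GFP-low DMSO libraries. In GFP-high cells it read 89.5, 91.3 and 89.8 CPM in FX1 libraries, against 74.2, 74.7 and 74.6 CPM in DMSO libraries. Every FX1 library was above every DMSO library of both gates. It rose by 0.24 ± 0.031 (edgeR adjusted p = 2.6e-12) in GFP-low and by 0.27 ± 0.031 (edgeR adjusted p = 9.6e-16) in GFP-high cells, and the trend-removed changes, 0.28 in each gate, had the same sign. SMARCA4 kept a several-fold excess over SMARCA2 in every group, with 6.48, 6.61, 5.18 and 6.13 times its level per kb of exon in GFP-low FX1, GFP-low DMSO, GFP-high FX1 and GFP-high DMSO cells (6.58, 6.71, 5.25 and 6.23 times with the longest transcripts).

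**Figure D2:**
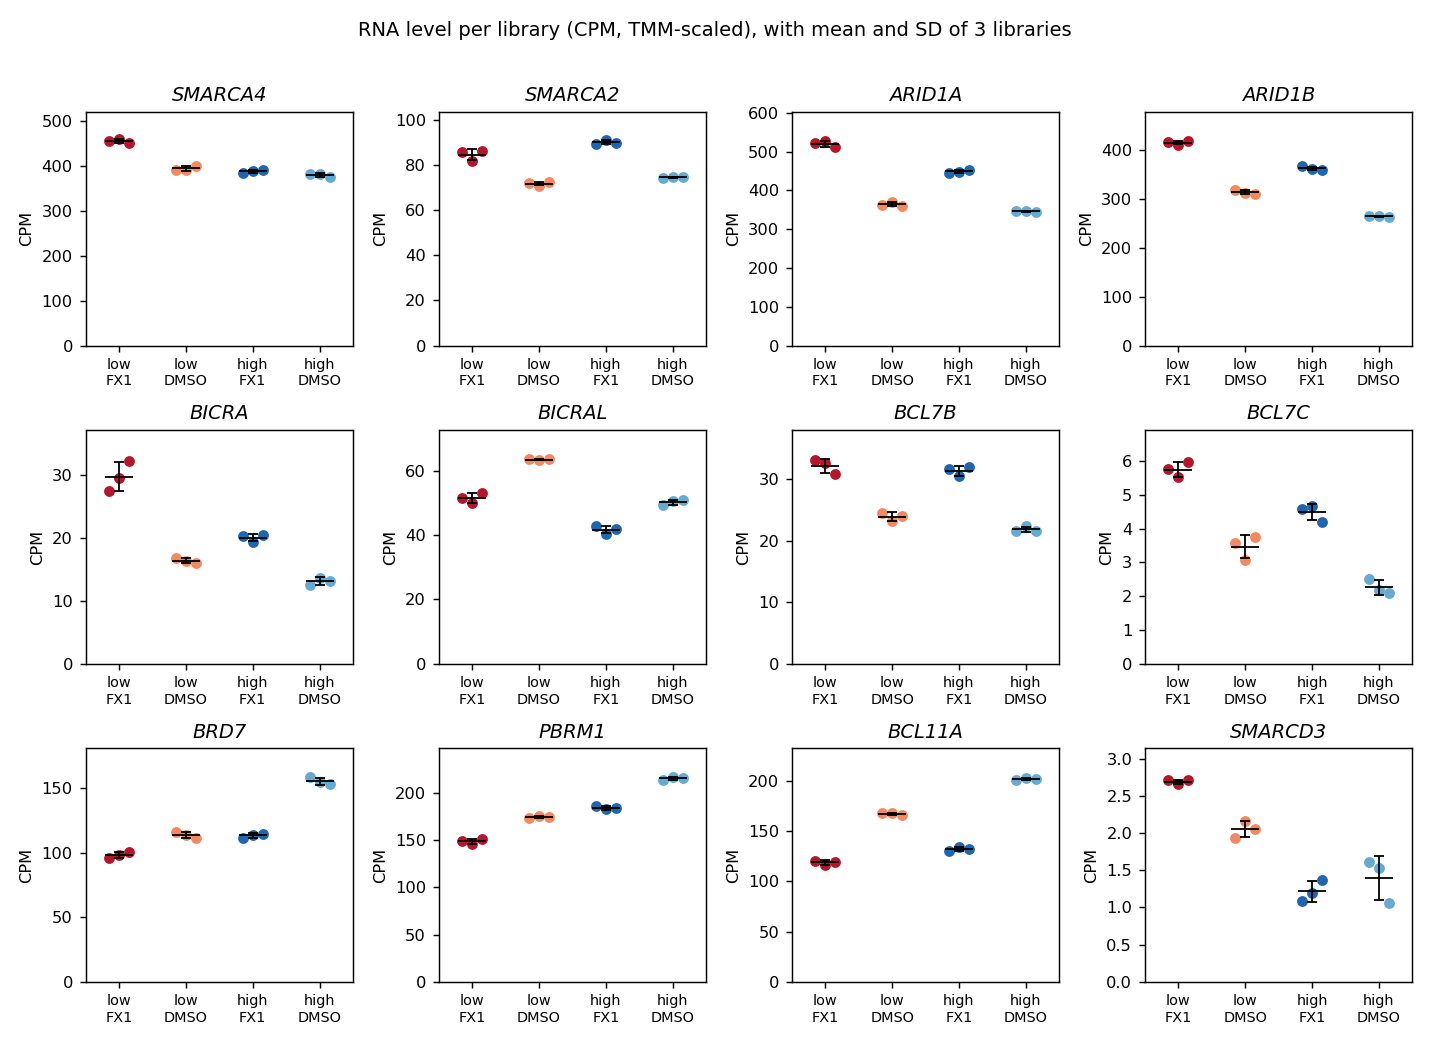
TMM-scaled CPM (y axis) of 12 subunits in every library, with a point for each library of GFP-low FX1, GFP-low DMSO, GFP-high FX1 and GFP-high DMSO cells. SMARCA2 and ARID1A lie higher with FX1 in both gates, BRD7, PBRM1 and BCL11A lie lower, and SMARCA4 is highest in the GFP-low FX1 libraries, with the other 3 groups near each other.

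Most subunits specific to cBAF rose with FX1. Of these, 4 of 5 were called higher in GFP-low cells (median change 0.40) and 3 of 5 in GFP-high cells (median 0.36), where 33.7% and 33.8% of all genes were higher, and none was lower in either gate. After removal of the trend 3 of 5 were higher in each gate, with medians of 0.14 and 0.12. ARID1A, the DNA-binding subunit that is often lost in cancer (ENSG00000117713, chr1:26693236-26782104, plus strand, hg38), read 521, 527 and 512 CPM in GFP-low FX1 libraries, against 362, 371 and 361 CPM in GFP-low DMSO libraries. In GFP-high cells ARID1A read 446, 449 and 453 CPM in FX1 libraries, against 347, 348 and 345 CPM in DMSO libraries. All FX1 libraries were far above all DMSO libraries. The rises were 0.51 ± 0.015 (edgeR adjusted p = 5.8e-93) in GFP-low and 0.37 ± 0.015 (edgeR adjusted p = 3.8e-66) in GFP-high cells, and the trend-removed ones 0.14 and 0.12. ARID1B, which takes the place of ARID1A in part of the complexes, read 416, 411 and 418 CPM in GFP-low FX1 libraries, against 319, 312 and 311 CPM in GFP-low DMSO libraries. In GFP-high cells ARID1B read 366, 361 and 359 CPM in FX1 libraries, against 264, 266 and 263 CPM in DMSO libraries. FX1 and DMSO libraries did not overlap, with rises of 0.40 ± 0.016 (edgeR adjusted p = 2.5e-68) in GFP-low and 0.46 ± 0.016 (edgeR adjusted p = 3.2e-75) in GFP-high cells (trend-removed 0.14 and 0.27).

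The PHD-finger subunit DPF2, which binds acetylated histones, read 71.2, 73.8 and 74.1 CPM in GFP-low FX1 libraries, against 50.98, 51.8 and 51.2 CPM in GFP-low DMSO libraries. In GFP-high cells DPF2 read 62.95, 65.8 and 61.5 CPM in FX1 libraries, against 48.7, 50.8 and 47.8 CPM in DMSO libraries. Each FX1 library was above each DMSO library, and DPF2 rose by 0.50 ± 0.036 (edgeR adjusted p = 1.2e-32) in GFP-low and by 0.36 ± 0.037 (edgeR adjusted p = 6.8e-19) in GFP-high cells. Its low paralog DPF1 read 4.71, 4.04 and 3.902 CPM in GFP-low FX1 libraries, against 2.95, 3.52 and 3.395 CPM in GFP-low DMSO libraries. Here the groups also separated, but narrowly, with a change of 0.38 ± 0.14 (edgeR adjusted p = 0.013) that was lost without GFP-low FX1 replicate 1 (adjusted p = 0.14) or GFP-low DMSO replicate 1 (adjusted p = 0.074) and was -0.00 with the trend removed. In GFP-high cells DPF1 read 3.97, 3.93 and 4.89 CPM in FX1 libraries, against 4.69, 4.38 and 3.87 CPM in DMSO libraries, which overlapped, at -0.02 ± 0.14 (edgeR adjusted p = 0.92). DPF3 was not called in either gate, at -0.16 ± 0.17 (edgeR adjusted p = 0.39) and -0.17 ± 0.17 (edgeR adjusted p = 0.36).

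Of the 4 PBAF-specific subunits, 1 was higher and 3 were lower in GFP-low cells, and 0 were higher and 3 lower in GFP-high cells, with a median change of -0.20 in each gate, where 34.3% and 34.6% of all genes were lower. Once the trend was removed 1 was higher and 2 were lower in GFP-low cells (median -0.03), and 0 were higher and 3 lower in GFP-high cells (median -0.18). Their longest transcripts had 37.3 to 43.1% GC, below the 48.6 to 62.6% of the cBAF-specific group. PBRM1 (polybromo), which carries a row of bromodomains that bind acetylated histones (ENSG00000163939, chr3:52545352-52685917, minus strand, hg38), read 149, 146 and 152 CPM in GFP-low FX1 libraries, against 174, 176 and 175 CPM in GFP-low DMSO libraries. In GFP-high cells PBRM1 read 186, 183 and 184 CPM in FX1 libraries, against 214, 217 and 217 CPM in DMSO libraries. The 4 groups did not overlap, and PBRM1 fell with FX1 with the same estimate in both gates, -0.23 ± 0.021 (edgeR adjusted p = 3.6e-22) in GFP-low and -0.23 ± 0.02 (edgeR adjusted p = 3.9e-23) in GFP-high cells. The trend-removed change was -0.12 in GFP-low and -0.22 in GFP-high cells.

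BRD7, a bromodomain subunit of PBAF (ENSG00000166164, chr16:50313487-50368988, minus strand, hg38), read 95.9, 98.3 and 100.4 CPM in GFP-low FX1 libraries, against 116, 114 and 112 CPM in GFP-low DMSO libraries. In GFP-high cells BRD7 read 112, 114 and 115 CPM in FX1 libraries, against 159, 155 and 153 CPM in DMSO libraries. FX1 libraries were below DMSO libraries in each gate, with changes of -0.22 ± 0.027 (edgeR adjusted p = 6.5e-14) in GFP-low and -0.45 ± 0.025 (edgeR adjusted p = 7.7e-46) in GFP-high cells and trend-removed ones of -0.16 and -0.43. Of the BRD7 exon bases 42.2% are shared with ADCY7, a gene on the opposite strand, and the strand setting of the counting is not given, so reads of the pair may not be told apart. ADCY7 moved against BRD7, at 81.4 ± 0.28 CPM in GFP-low FX1, 40.2 ± 0.79 CPM in GFP-low DMSO, 44.2 ± 2.3 CPM in GFP-high FX1 and 28.8 ± 2 CPM in GFP-high DMSO cells (SD, n = 3 each).

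PHF10, the PHD-finger subunit of PBAF, averaged 72.5 ± 1.41 CPM in GFP-low FX1 and 82.7 ± 1.92 CPM in GFP-low DMSO cells (SD, n = 3 each). In GFP-high cells PHF10 averaged 83.6 ± 0.731 CPM with FX1 and 94.2 ± 3.24 CPM with DMSO. It was lower with FX1, at -0.19 ± 0.031 (edgeR adjusted p = 1.9e-08) in GFP-low and -0.18 ± 0.03 (edgeR adjusted p = 5.8e-08) in GFP-high cells, but the trend-removed change was 0.06 in GFP-low cells, which turns the sign and ends the call, and -0.14 in GFP-high cells. ARID2, the PBAF counterpart of ARID1A, was the exception of its group, with 0.17 ± 0.027 (edgeR adjusted p = 8.2e-09) in GFP-low and 0.03 ± 0.028 (edgeR adjusted p = 0.3) in GFP-high cells, and 0.27 and 0.04 with the trend removed.

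The ncBAF-specific subunits were split within a paralog pair, with 2 of 3 higher and 1 lower in each gate. Over all genes 33.7% were higher and 34.3% lower in GFP-low cells, and 33.8% and 34.6% in GFP-high cells. With the trend removed, 2 were higher and 1 lower in GFP-low cells (33.2% and 32.1% of all genes). In GFP-high cells 1 was then higher and 1 lower (33.2% and 34.7% of all genes). BICRA (GLTSCR1), the subunit that defines ncBAF (ENSG00000063169, chr19:47608196-47703277, plus strand, hg38), read 27.4, 29.5 and 32.1 CPM in GFP-low FX1 libraries, against 16.8, 16.3 and 15.96 CPM in GFP-low DMSO libraries. In GFP-high cells BICRA read 20.2, 19.3 and 20.4 CPM in FX1 libraries, against 12.4, 13.7 and 13.2 CPM in DMSO libraries. Every FX1 library was above every DMSO library, and the rise, 0.84 ± 0.06 (edgeR adjusted p = 4.7e-32) in GFP-low and 0.61 ± 0.067 (edgeR adjusted p = 2.6e-16) in GFP-high cells, came down to 0.19 and 0.15 with the trend removed. Its paralog BICRAL (ENSG00000112624, chr6:42746958-42868560, plus strand, hg38) read 51.5, 50.02 and 53.02 CPM in GFP-low FX1 libraries, against 63.7, 63.4 and 63.6 CPM in GFP-low DMSO libraries. In GFP-high cells BICRAL read 42.8, 40.5 and 42.04 CPM in FX1 libraries, against 49.5, 50.6 and 50.9 CPM in DMSO libraries. It was lower in every FX1 library of each gate, at -0.31 ± 0.037 (edgeR adjusted p = 3.8e-14) in GFP-low and -0.27 ± 0.04 (edgeR adjusted p = 4.5e-10) in GFP-high cells, and the trend-removed changes of -0.29 and -0.27 were of like size. BRD9, the ncBAF bromodomain subunit, read 77.3, 79.2 and 72.95 CPM in GFP-low FX1 libraries, against 60.2, 59 and 59.2 CPM in GFP-low DMSO libraries. In GFP-high cells BRD9 read 65.8, 63.3 and 66.4 CPM in FX1 libraries, against 62.4, 58.2 and 57.99 CPM in DMSO libraries. It rose by 0.37 ± 0.034 (edgeR adjusted p = 1.3e-21) in GFP-low and by 0.13 ± 0.035 (edgeR adjusted p = 0.00034) in GFP-high cells, and the trend-removed change was 0.15 in GFP-low cells and, with the sign turned and the call lost, -0.01 in GFP-high cells.

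A further group is listed here as core, and which of its paralogs sit in which form was not measured. Among its 8 tested subunits, 5 were higher and 1 lower in GFP-low cells, and 3 were higher and 1 lower in GFP-high cells. Over all genes 33.7% were higher and 34.3% lower in GFP-low cells, and 33.8% and 34.6% in GFP-high cells. After removal of the trend 3 were higher and 3 lower in GFP-low cells, and 4 were higher and 3 lower in GFP-high cells. The BCL7 proteins, small subunits of which BCL7A is a target of mutation in lymphoma, carried the largest rises. BCL7C (ENSG00000099385, chr16:30833626-30894302, minus strand, hg38) read 5.75, 5.52 and 5.97 CPM in GFP-low FX1 libraries, against 3.56, 3.08 and 3.76 CPM in GFP-low DMSO libraries. In GFP-high cells BCL7C read 4.57, 4.68 and 4.21 CPM in FX1 libraries, against 2.499, 2.19 and 2.08 CPM in DMSO libraries. FX1 libraries were above DMSO libraries throughout, from only 49 to 259 counts per library. BCL7C rose by 0.73 ± 0.13 (edgeR adjusted p = 2.4e-07) in GFP-low and 0.99 ± 0.15 (edgeR adjusted p = 8.5e-10) in GFP-high cells (trend-removed 0.30 and 0.72).

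BCL7B read 33.03, 32.5 and 30.9 CPM in GFP-low FX1 libraries, against 24.5, 23.1 and 24.04 CPM in GFP-low DMSO libraries. In GFP-high cells BCL7B read 31.7, 30.5 and 31.9 CPM in FX1 libraries, against 21.5, 22.3 and 21.6 CPM in DMSO libraries. Again no FX1 library fell within the DMSO range, with rises of 0.44 ± 0.053 (edgeR adjusted p = 3.5e-14) in GFP-low and 0.52 ± 0.054 (edgeR adjusted p = 4.3e-18) in GFP-high cells (trend-removed 0.17 and 0.38). BCL7A, which lay between 99.8 and 119 CPM in all 12 libraries, moved little. Its change was 0.10 ± 0.027 (edgeR adjusted p = 7e-04) in GFP-low cells, where leaving out GFP-high DMSO replicate 1, 2 or 3 gave 0.05 with adjusted p of 0.071 to 0.078 and the trend-removed change was -0.15. In GFP-high cells BCL7A had -0.04 ± 0.027 (edgeR adjusted p = 0.23) and a trend-removed change of -0.21, which was called.

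SMARCD1, one of the scaffold subunits that receive transcription factors, averaged 121 ± 1.24 CPM in GFP-low FX1 and 95.95 ± 3.34 CPM in GFP-low DMSO cells (SD, n = 3 each). In GFP-high cells it averaged 120.3 ± 2.33 CPM with FX1 and 99.6 ± 2.02 CPM with DMSO. It rose by 0.33 ± 0.027 (edgeR adjusted p = 1.7e-26) in GFP-low and 0.27 ± 0.027 (edgeR adjusted p = 1.8e-19) in GFP-high cells (trend-removed 0.12 and 0.14). Its paralog SMARCD2, known for its role in granulocyte development, had 0.14 ± 0.028 (edgeR adjusted p = 3e-06) in GFP-low and -0.03 ± 0.028 (edgeR adjusted p = 0.32) in GFP-high cells, and trend-removed changes of -0.16 and -0.21, both called and the first with the sign turned. SMARCC1 changed little, by -0.03 ± 0.015 (edgeR adjusted p = 0.086) in GFP-low and -0.04 ± 0.015 (edgeR adjusted p = 0.016) in GFP-high cells. With the trend removed the changes were -0.08 and -0.07, both called. Its calls at this size shifted with single libraries: the change in GFP-low cells was -0.07 without GFP-high DMSO replicate 1, 2 or 3 (adjusted p = 8.1e-06 at most). The change in GFP-high cells missed the threshold when any 1 of 7 libraries was left out, namely GFP-low FX1 replicate 2 or 3, any GFP-high FX1 replicate, or GFP-high DMSO replicate 2 or 3 (adjusted p of 0.052 to 0.16).

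ACTL6A, the actin-like subunit of dividing cells, read 55.1, 53.7 and 53.02 CPM in GFP-low FX1 libraries, against 59.8, 61.03 and 65.6 CPM in GFP-low DMSO libraries. In GFP-high cells ACTL6A read 67.1, 69.1 and 69.05 CPM in FX1 libraries, against 71.8, 70.5 and 71.2 CPM in DMSO libraries. FX1 libraries were lower in GFP-low cells, with -0.20 ± 0.036 (edgeR adjusted p = 2.1e-07), and those of GFP-high cells were lower without overlap too, at -0.06 ± 0.034 (edgeR adjusted p = 0.13), but not called. Once the trend was removed ACTL6A changed by 0.01 in GFP-low and by 0.09 in GFP-high cells, both with the sign turned and the second called.

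Among subunits that cBAF and PBAF share, SMARCC2, the paralog of SMARCC1, read 190, 190.1 and 188 CPM in GFP-low FX1 libraries, against 146, 145 and 144 CPM in GFP-low DMSO libraries. In GFP-high cells SMARCC2 read 173, 172 and 165 CPM in FX1 libraries, against 161, 157 and 159 CPM in DMSO libraries. The rise was 0.39 ± 0.022 (edgeR adjusted p = 1.4e-44) in GFP-low and 0.10 ± 0.022 (edgeR adjusted p = 2.6e-05) in GFP-high cells, and the trend-removed changes were 0.16 and, with the sign turned, -0.05. SMARCB1 (SNF5), the tumour suppressor that anchors the complex to the nucleosome, rose by 0.26 ± 0.029 (edgeR adjusted p = 5.5e-16) in GFP-low and 0.10 ± 0.029 (edgeR adjusted p = 0.0013) in GFP-high cells, but its trend-removed changes were -0.15 and -0.17. DERL3 on the other strand shares 17.7% of the SMARCB1 exon bases and was at 4.56 to 22.7 CPM (group means).

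SMARCE1 (BAF57), an HMG-box DNA-binding subunit, read 25.8, 26.7 and 24.01 CPM in GFP-low FX1 libraries, against 33.7, 31.4 and 33.2 CPM in GFP-low DMSO libraries. In GFP-high cells SMARCE1 read 27.6, 28.1 and 27.6 CPM in FX1 libraries, against 35.8, 34.2 and 36.8 CPM in DMSO libraries. All FX1 libraries were below all DMSO libraries, with the same estimate in both gates, -0.35 ± 0.051 (edgeR adjusted p = 2e-10) in GFP-low and -0.35 ± 0.05 (edgeR adjusted p = 7.7e-11) in GFP-high cells (trend-removed -0.18 and -0.35). Of its exon bases 18.9% lie in other genes on the same strand.

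The SS18 proteins are shared by cBAF and ncBAF, and SS18 is the partner that synovial sarcoma fuses to SSX. SS18 read 128, 129.6 and 130.4 CPM in GFP-low FX1 libraries, against 106, 109 and 111 CPM in GFP-low DMSO libraries. In GFP-high cells SS18 read 158, 155 and 155 CPM in FX1 libraries, against 130.5, 128 and 135 CPM in DMSO libraries. FX1 libraries were above DMSO libraries in each gate, by 0.25 ± 0.025 (edgeR adjusted p = 4.9e-19) in GFP-low and 0.25 ± 0.024 (edgeR adjusted p = 8.8e-21) in GFP-high cells, and the trend-removed rises were 0.38 and 0.33. SS18L1 (CREST), its paralog, rose by 0.26 ± 0.054 (edgeR adjusted p = 7.7e-06) in GFP-low cells and by 0.13 ± 0.057 (edgeR adjusted p = 0.033) in GFP-high cells, the second lost without GFP-high FX1 replicate 3 (adjusted p = 0.14), GFP-high DMSO replicate 1 (adjusted p = 0.079) or GFP-high DMSO replicate 2 (adjusted p = 0.075) and, at 0.052, in DESeq2, and at 0.051 with the trend removed.

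BCL11A, a zinc-finger transcription factor of B cells that is also counted as a BAF subunit (ENSG00000119866, chr2:60450520-60554467, minus strand, hg38), had the largest fall of the 28 subunits in both gates. It read 120.4, 116 and 119.5 CPM in GFP-low FX1 libraries, against 168, 168 and 166 CPM in GFP-low DMSO libraries. In GFP-high cells BCL11A read 129.8, 134 and 132 CPM in FX1 libraries, against 201, 203 and 202 CPM in DMSO libraries. No FX1 library reached any DMSO library. The change was -0.49 ± 0.023 (edgeR adjusted p = 1.4e-56) in GFP-low and -0.61 ± 0.022 (edgeR adjusted p = 2.3e-75) in GFP-high cells, and taking out the trend made it -0.61 and -0.69.

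Ratios of paralogs within a library do not depend on how libraries are scaled to each other, and 14 of 16 listed pairs had enough counts. Each was compared between FX1 and DMSO over both gates with an exact two-sided permutation test within gates (400 assignments, smallest possible p 0.005), adjusted over the 28 ratio tests. With FX1, 9 of 14 pairs were called. Ratios of other gene pairs were not tested, so this count has no background beside it. DPF2 to DPF1 was higher by 0.27 (exact permutation test, adjusted p = 0.031). This call was lost without GFP-low FX1 replicate 2 or 3, GFP-low DMSO replicate 2 or 3, or GFP-high FX1 replicate 1 or 2. It was also lost without any 1 GFP-high DMSO replicate (exact permutation test, adjusted p of 0.054 to 0.096 over these settings). The ratio of BICRA to BICRAL counts was 0.576 ± 0.038 in GFP-low FX1 and 0.257 ± 0.0063 in GFP-low DMSO cells, and 0.478 ± 0.0068 in GFP-high FX1 and 0.26 ± 0.0092 in GFP-high DMSO cells (SD, n = 3 each). It was higher by 1.02 (log2) with FX1 (exact permutation test, adjusted p = 0.011), and by 0.46 with the trend removed.

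The balance within the BCL7 family shifted from BCL7A to its paralogs. BCL7A to BCL7B counts stood at 3.6 ± 0.079 in GFP-low FX1 and 4.55 ± 0.12 in GFP-low DMSO cells, and at 3.21 ± 0.058 in GFP-high FX1 and 4.74 ± 0.17 in GFP-high DMSO cells. That is a log2 difference of -0.45, beside -0.84 for BCL7A to BCL7C and -0.39 for BCL7B to BCL7C (exact permutation test, adjusted p = 0.011 for each), the last -0.24 with the trend removed. SMARCD1 to SMARCD2 was higher with FX1 by 0.25 (exact permutation test, adjusted p = 0.011) and DPF2 to DPF3 by 0.57 (exact permutation test, adjusted p = 0.019). SMARCC1 to SMARCC2 counts were 2.06 ± 0.014 in GFP-low FX1 and 2.75 ± 0.04 in GFP-low DMSO cells, and 2.61 ± 0.05 in GFP-high FX1 and 2.87 ± 0.048 in GFP-high DMSO cells. The log2 ratio was lower with FX1, at -0.42 in GFP-low and -0.13 in GFP-high cells (mean -0.27, exact permutation test, adjusted p = 0.011), and its mean was -0.13 with the trend removed.

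For the ATPases, SMARCA4 to SMARCA2 counts were 5.4 ± 0.21 in GFP-low FX1 and 5.51 ± 0.055 in GFP-low DMSO cells, and 4.31 ± 0.046 in GFP-high FX1 and 5.11 ± 0.063 in GFP-high DMSO cells. The mean log2 difference with FX1 was -0.14 (exact permutation test, adjusted p = 0.031), made of -0.03 in GFP-low and -0.25 in GFP-high cells. It was lost without GFP-low FX1 replicate 1 (adjusted p = 0.062) or replicate 3 (adjusted p = 0.066), and was -0.55 with the trend removed. ARID1A to ARID1B did not pass, at 0.11 in GFP-low and -0.08 in GFP-high cells (mean 0.02, exact permutation test, adjusted p = 0.7), nor did SS18 to SS18L1 (mean 0.06, exact permutation test, adjusted p = 0.19), which with the trend removed was called at 0.18 (adjusted p = 0.0093, exact permutation test).

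**Figure D3:**
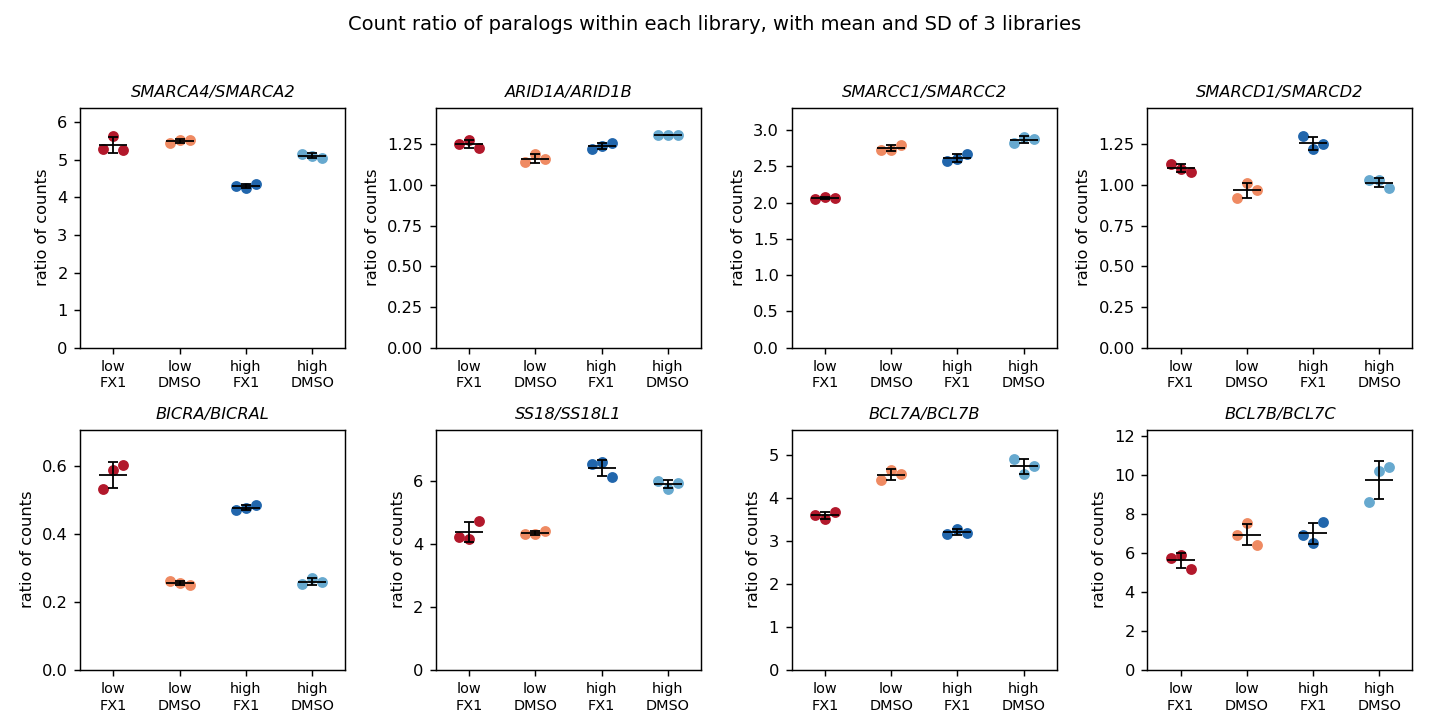
Ratio of counts of paralogs (y axis) for 8 pairs in every library, with points for the 3 libraries of GFP-low FX1, GFP-low DMSO, GFP-high FX1 and GFP-high DMSO cells. BICRA to BICRAL lies higher with FX1 in both gates, BCL7A to BCL7B lies lower, and SS18 to SS18L1 is separated by gate.

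**Figure D4:**
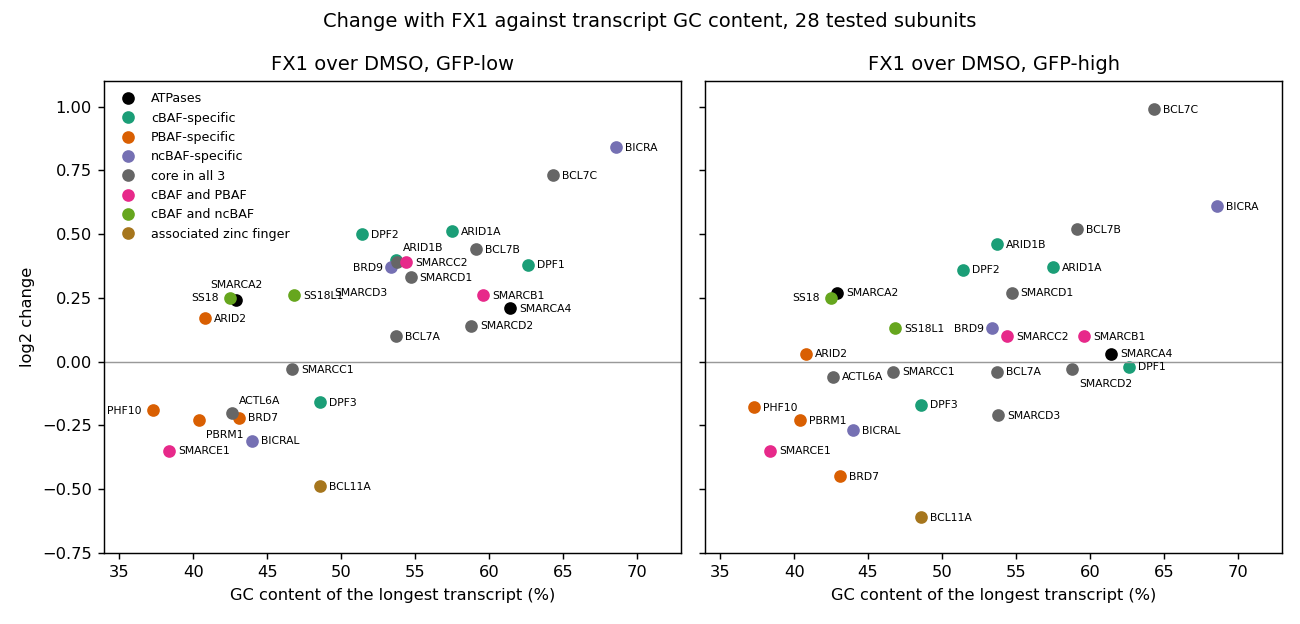
Log2 change with FX1 over DMSO (y axis) against GC content of the longest transcript in percent (x axis) for the 28 tested subunits in GFP-low cells and in GFP-high cells, coloured by subcomplex. Subunits of high GC content such as BICRA and BCL7C lie high and AT-rich ones such as PBRM1 and SMARCE1 lie low, with rho 0.698 in GFP-low and 0.541 in GFP-high cells.

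GC content just around the gene starts followed the changes less than that of the transcripts. RefSeq promoter windows, 250 bases before to 50 after the start, were at hand for 26 of 30 subunits (SMARCC1, SMARCC2, ARID2 and ACTL6A are named only). For the 24 of them that were tested, rho between promoter GC and the FX1 change was 0.244 in GFP-low and 0.163 in GFP-high cells, where transcript GC of the same 24 gave 0.681 and 0.544. Where a gene had several windows, only that nearest its outermost annotated start was used for promoter GC. For ARID1B, with 2 windows, it had 37.7% GC, the lowest of the 26. Other choices of window were not tried. A BCL6-type motif, TTCCTNGAA on either strand, was in 0 of the 47 subunit windows and in 1.56% of 35116 windows of all genes. The looser TTCNNNGAA, which contains the first motif, was in 4.26% of subunit windows (in BCL11A and BICRA) and in 7.66% of all windows. TGACNNNGC, the core of the antioxidant response element, was in 6.38% of subunit windows (in BCL7B, BICRAL and SMARCD3) and in 13.3% of all. A match describes letters only, and the lack of one says nothing about binding.

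The FX1 effect itself differed between the gates for 13 of 28 subunits, tested as the interaction of treatment and gate in edgeR. It was larger (more positive) in GFP-low cells for 12 and smaller for 1, where 14.8% of all genes were called in the first direction and 16.5% in the second (31.3% in either). With a floor of 50 counts in 3 libraries, 12 and 1 of 28 subunits were called, beside 2983 and 2622 of 12809 genes. SMARCC2 led, with a difference of 0.29 ± 0.031 (edgeR adjusted p = 2e-16), followed by BICRA with 0.24 ± 0.091 (edgeR adjusted p = 0.032), BRD7 with 0.24 ± 0.036 (edgeR adjusted p = 6.3e-09) and BRD9 with 0.23 ± 0.049 (edgeR adjusted p = 2.7e-05). For BRD7 this is a smaller fall in GFP-low cells. The trend-removed differences were 0.21, 0.05 (not called), 0.27 and 0.16 in the same order of genes. For SMARCA4 the difference was 0.18 ± 0.021 (edgeR adjusted p = 1.5e-13), and 0.03, no longer called, with the trend removed. In the fit to all libraries ACTL6A alone had the more negative FX1 effect in GFP-low cells, at -0.14 ± 0.049 (edgeR adjusted p = 0.017). ACTL6A lost the call without GFP-low DMSO replicate 3 (adjusted p = 0.12) and, at -0.08, with the trend removed. ARID1B, not called in that fit, was called at -0.10 without GFP-high DMSO replicate 1, 2 or 3 (edgeR adjusted p of 0.00028 to 0.00058). It was also called, at -0.06, without GFP-low DMSO replicate 3 (edgeR adjusted p = 0.034) or GFP-low FX1 replicate 3 (rounded to 0.05).

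The call for BICRA was lost, with adjusted p of 0.053 to 0.27, when any 1 of 8 libraries was left out, namely GFP-low FX1 replicate 2 or 3, GFP-low DMSO replicate 2 or 3, GFP-high FX1 replicate 2, and GFP-high DMSO replicate 1, 2 or 3. The count of 12 fell to 6 without GFP-high DMSO replicate 1, to 6 without replicate 2 and to 7 without replicate 3. Over all genes the larger and smaller effects then numbered 1797 and 3511 of 18438, 1759 and 3484 of 18213, and 1863 and 3546 of 18438. With all libraries they numbered 2636 and 2947 of 17859, so the whole table moved and not the subunits alone. With the trend removed the count was 7, beside 2 that were smaller, ARID1B and BCL7B (13.8% and 14.3% of all genes). The 5 subunits whose call held in direction after the trend was removed were SMARCC2, BRD7, BRD9, ARID2 and BCL11A.

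GFP-low and GFP-high cells differed as well. Under FX1, 14 of 28 subunits were higher and 9 lower in GFP-low cells (30.2% and 26.7% of all genes, 56.9% in either direction). Under DMSO 9 were higher and 11 lower (21.7% and 24.4% of all genes, 46.1% in either direction). With a floor of 50 counts in 3 libraries, 15 were higher and 7 lower under FX1, beside 5190 and 4223 of 12809 genes. Under DMSO 10 were then higher and 10 lower, beside 3840 and 3909 of 12809 genes. With the trend removed 8 were higher and 12 lower under FX1 (26% and 22.6% of all genes), and 5 were higher and 12 lower under DMSO (20% and 20.9% of all genes). The ranges of the gates did not overlap for 24 of 28 subunits under FX1 and 23 of 28 under DMSO. The shares of all genes without overlap were 61.1% and 51.6%. Medians were 0.10 and 0.01, beside 0.08 and 0.03 over all genes. The contrasts under FX1 and under DMSO share no library, and 17 of 28 subunits (60.7%) were called the same way in both, compared with 33.4% of all genes. Higher in both were ARID1A, ARID1B, BCL7A, BCL7C, BICRA, BICRAL, SMARCA4, SMARCD3 and SS18L1, and lower in both were ACTL6A, BCL11A, BRD7, PBRM1, PHF10, SMARCC1, SMARCE1 and SS18. SMARCC2 was the 1 subunit called in opposite directions, 0.16 ± 0.021 (edgeR adjusted p = 6e-12) under FX1 and -0.13 ± 0.023 (edgeR adjusted p = 1.1e-07) under DMSO, and these were 0.01 (not called) and -0.21 with the trend removed. Of the calls under FX1, those of ARID1B, BCL7A, BCL7C, BICRA, SMARCA2, SMARCC2 and SMARCD2 were lost and those of ARID1A, PHF10, SMARCA4 and SMARCE1 turned when the trend was removed. Of the calls under DMSO, those of ACTL6A, BCL7A, BICRA, PHF10, SMARCD3 and SMARCE1 were lost and those of ARID1A and SMARCA4 turned.

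**Figure D5:**
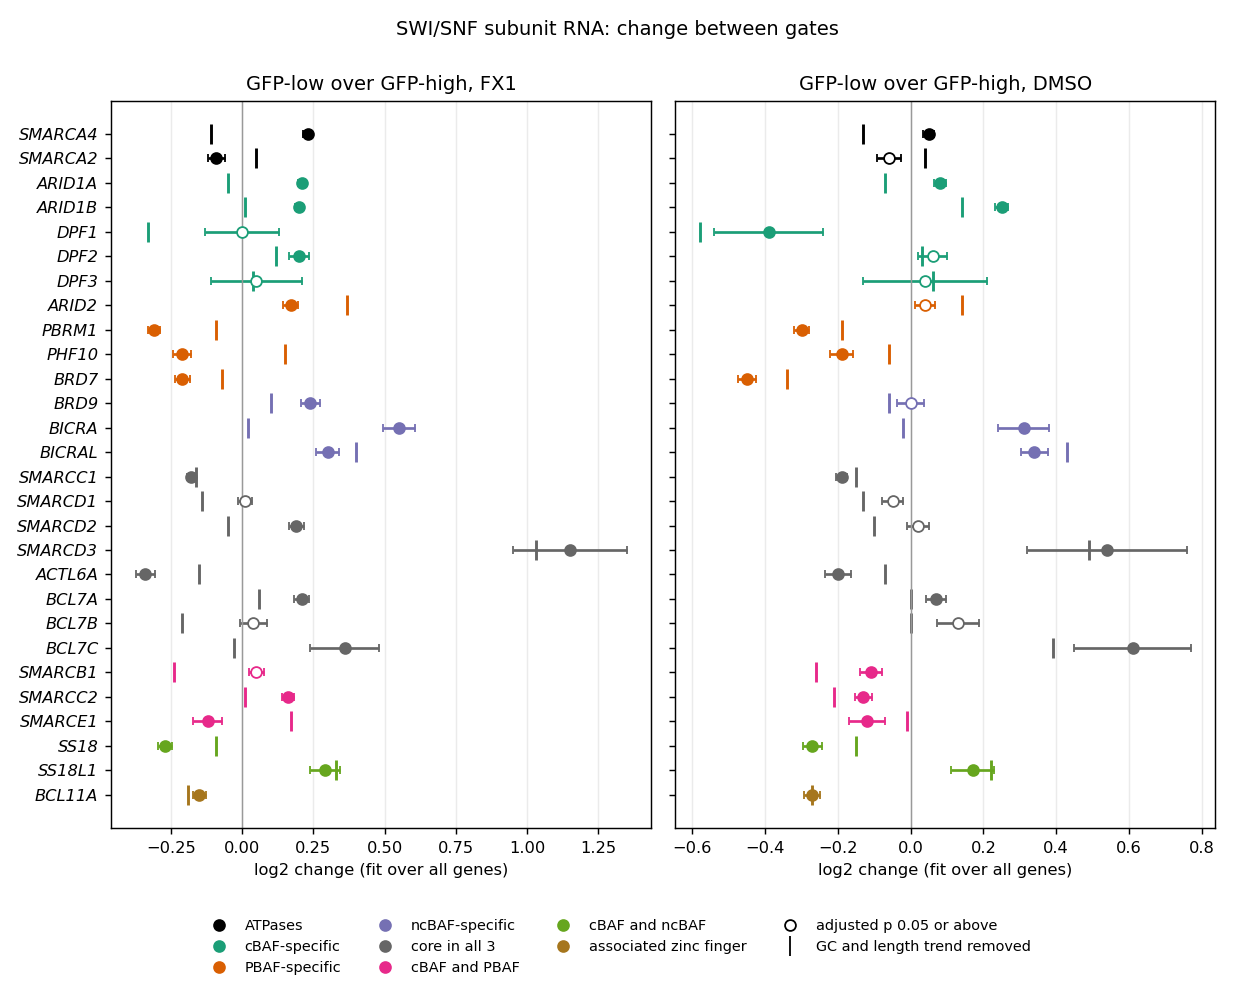
Log2 change of GFP-low over GFP-high cells (x axis, with standard error) of the 28 tested subunits (rows) under FX1 and under DMSO, coloured by subcomplex, with filled points for adjusted p below 0.05, open points otherwise and a vertical tick for the trend-removed change. SMARCD3 lies farthest to the right under FX1, at 1.15, and PBRM1 and SS18 lie to the left in both.

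SMARCD3, the SMARCD paralog of heart and muscle (ENSG00000082014, chr7:151238764-151277896, minus strand, hg38), had the only called change of at least 2-fold. It read 2.71, 2.66 and 2.71 CPM in GFP-low FX1 libraries, against 1.09, 1.195 and 1.36 CPM in GFP-high FX1 libraries. Under DMSO it read 1.94, 2.16 and 2.06 CPM in GFP-low DMSO libraries, against 1.61, 1.53 and 1.06 CPM in GFP-high DMSO libraries. The gates did not overlap under either treatment, and under FX1 the fold was 2.22, a log2 change of 1.15 ± 0.2 (edgeR adjusted p = 9.2e-08). Under DMSO the change was 0.54 ± 0.22 (edgeR adjusted p = 0.028), lost without GFP-low DMSO replicate 2 (adjusted p = 0.08) or GFP-high DMSO replicate 3 (0.39, adjusted p = 0.17) and in DESeq2, where adjusted p rounded to 0.05, and at 0.055 with the trend removed. All of this rests on 25 to 122 counts per library, and other genes cover 14.6% of its exon bases.

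Of the ncBAF-specific subunits, 3 of 3 were higher in GFP-low cells under FX1 (median 0.30) and 2 of 3 under DMSO (median 0.31), where 30.2% and 21.7% of all genes were higher. After removal of the trend 2 of 3 were higher under FX1 (median 0.10) and 1 of 3 under DMSO (median -0.02). The per-library values of BICRAL given above were higher in every GFP-low library than in any GFP-high library of the same treatment, by 0.30 ± 0.039 (edgeR adjusted p = 1.4e-12) under FX1 and 0.34 ± 0.038 (edgeR adjusted p = 3.4e-15) under DMSO (trend-removed 0.40 and 0.43). BICRA was higher by 0.55 ± 0.057 (edgeR adjusted p = 2.5e-18) under FX1 and 0.31 ± 0.071 (edgeR adjusted p = 6.5e-05) under DMSO, but the trend-removed changes were 0.02 and -0.02, neither called. BCL7C was higher by 0.36 ± 0.12 (edgeR adjusted p = 0.0094) under FX1 and 0.61 ± 0.16 (edgeR adjusted p = 0.00059) under DMSO, and the trend-removed changes were -0.03 (not called) and 0.39. SMARCA4 was higher in GFP-low cells by 0.23 ± 0.015 (edgeR adjusted p = 1.8e-37) under FX1 and 0.05 ± 0.015 (edgeR adjusted p = 0.002) under DMSO, turning to -0.11 and -0.13 with the trend removed.

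Of the PBAF-specific subunits, 1 of 4 was higher and 3 were lower in GFP-low cells under FX1 (median -0.21), and 0 were higher and 3 lower under DMSO (median -0.25), where 26.7% and 24.4% of all genes were lower. Once the trend was removed 2 were higher and 2 lower under FX1 (median 0.04), and 1 was higher and 2 were lower under DMSO (median -0.12). PBRM1 was lower in GFP-low cells, at -0.31 ± 0.021 (edgeR adjusted p = 6.3e-35) under FX1 and -0.30 ± 0.021 (edgeR adjusted p = 1.6e-33) under DMSO (trend-removed -0.09 and -0.19), and BRD7 at -0.21 ± 0.026 (edgeR adjusted p = 5.8e-14) and -0.45 ± 0.026 (edgeR adjusted p = 1.8e-43) (trend-removed -0.07 and -0.34). PHF10 was lower at -0.21 ± 0.031 (edgeR adjusted p = 5.4e-10) under FX1 and -0.19 ± 0.031 (edgeR adjusted p = 1.5e-08) under DMSO, and with the trend removed the first turned to 0.15 and the second was -0.06, not called. Of the others, SS18 was lower at -0.27 ± 0.024 (edgeR adjusted p = 5.4e-24) under FX1 and -0.27 ± 0.026 (edgeR adjusted p = 4.2e-20) under DMSO (trend-removed -0.09 and -0.15), ACTL6A at -0.34 ± 0.034 (edgeR adjusted p = 1.4e-18) and -0.20 ± 0.035 (edgeR adjusted p = 3.6e-07) (trend-removed -0.15 and -0.07, the second not called), and BCL11A at -0.15 ± 0.023 (edgeR adjusted p = 1.7e-09) and -0.27 ± 0.022 (edgeR adjusted p = 2.8e-26).

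DPF1 was lower in GFP-low cells under DMSO, at -0.39 ± 0.15 (edgeR adjusted p = 0.019), a call lost without GFP-low DMSO replicate 1 (adjusted p = 0.11), GFP-high DMSO replicate 1 (adjusted p = 0.087) or GFP-high DMSO replicate 2 (adjusted p = 0.059). SMARCA2 was lower in GFP-low cells, at -0.09 ± 0.03 (edgeR adjusted p = 0.0045) under FX1, lost without GFP-low FX1 replicate 2 (-0.07, adjusted p = 0.077) and turned to 0.05 with the trend removed, and had -0.06 ± 0.033 (edgeR adjusted p = 0.16) under DMSO. SMARCE1 passed narrowly, -0.12 ± 0.051 (edgeR adjusted p = 0.043) under FX1 and -0.12 ± 0.05 (edgeR adjusted p = 0.044) under DMSO. Its calls were lost when any 1 of 5 libraries was left out under FX1, or any 1 of 8 under DMSO, with adjusted p of up to 0.2 and 0.25, and with the trend removed the change was 0.17 under FX1 and -0.01, not called, under DMSO.

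Between gates 9 of 14 paralog ratios were called, again without a background of other gene pairs. SS18 to SS18L1 counts were 4.38 ± 0.31 in GFP-low FX1 and 6.42 ± 0.26 in GFP-high FX1 cells, and 4.35 ± 0.056 in GFP-low DMSO and 5.9 ± 0.12 in GFP-high DMSO cells (SD, n = 3 each). The mean log2 difference was -0.50 (exact permutation test, adjusted p = 0.011), and -0.39 with the trend removed. SMARCA4 to SMARCA2 was higher in GFP-low cells by 0.22 (0.32 under FX1 and 0.11 under DMSO, exact permutation test, adjusted p = 0.011), but the trend-removed difference was -0.17. SMARCD1 to SMARCD3 was lower in GFP-low cells, at -0.89, and SMARCC1 to SMARCC2 at -0.20 (exact permutation test, adjusted p = 0.011 for each), the second not called at -0.05 with the trend removed. BICRA to BICRAL did not pass, at 0.27 under FX1 and -0.02 under DMSO (mean 0.12, exact permutation test, adjusted p = 0.11), but was called at -0.40 with the trend removed (exact permutation test, adjusted p = 0.0093).

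Other chromatin genes show the setting in which the subunits moved. With FX1, PRC2 genes, which encode the Polycomb complex that SWI/SNF opposes, were mostly lower, 8 of 11 (2 higher) in GFP-low and 9 of 11 (0 higher) in GFP-high cells. Over all genes 34.3% were lower and 33.7% higher in GFP-low cells, and 34.6% and 33.8% in GFP-high cells. The PRC2 counts were the same with the trend removed (32.1% and 34.7% of all genes lower), but not for the same genes. In GFP-low cells PHF1 turned from 0.14 to -0.17 and EED from -0.31 to 0.13, all called. RBBP7 lost the call there and JARID2 gained 1, as lower. In GFP-high cells EED lost the call and PHF1 gained 1, as lower. PHF19, its accessory subunit, changed by -1.22 ± 0.032 (edgeR adjusted p = 1e-101) in GFP-low and -1.35 ± 0.033 (edgeR adjusted p = 4.8e-107) in GFP-high cells, well beyond any subunit of SWI/SNF. Of 14 ATPases of other remodelling complexes, 7 were higher and 5 lower in GFP-low cells, and 5 were higher and 6 lower in GFP-high cells. The shares over all genes are those just given for PRC2. Once the trend was removed 6 were higher and 5 lower in GFP-low cells, and 5 were higher and 7 lower in GFP-high cells. HELLS, a DNA-methylation-linked remodeller, changed by -0.75 ± 0.02 (edgeR adjusted p = 2.8e-99) in GFP-low and -0.47 ± 0.019 (edgeR adjusted p = 6.4e-66) in GFP-high cells. CHD7 rose instead, by 0.63 ± 0.019 (edgeR adjusted p = 9.2e-92) in GFP-low and 0.36 ± 0.019 (edgeR adjusted p = 1.4e-49) in GFP-high cells. In GFP-high cells ATRX changed by -0.48 ± 0.019 (edgeR adjusted p = 1.4e-68) and CHD4 by 0.46 ± 0.035 (edgeR adjusted p = 1.4e-29). ACTB, cytoplasmic actin and also a SWI/SNF component, fell in GFP-low cells, at -0.32 ± 0.0098 (edgeR adjusted p = 1.1e-87) and in GFP-high cells, at -0.05 ± 0.0098 (edgeR adjusted p = 4.8e-06) (trend-removed -0.48 and -0.13).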

How the data were processed

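Total RNA of Raji cells was depleted of ribosomal RNA and sequenced from KAPA RNA HyperPrep libraries, per the labels' protocols. FastQC, STAR, featureCounts of the Subread package, R 4.2.1 and hg38 were named, per the submitters' processing notes. STAR and featureCounts versions, the annotation release and the strand setting are not given in the sources used here. Per the file headers, the authors deposited raw counts for each gene. Of 60710 table lines, 3 formed a broken record (ANK2) and were left out, and 0 count columns lacked a sample.

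The 17859 genes passing filterByExpr were tested in R 4.3.3 with edgeR 4.0.16, using TMM scaling and a robust quasi-likelihood fit with a term per group over all 12 libraries (8 residual degrees of freedom). The 5 contrasts were each adjusted by Benjamini-Hochberg over all genes, with a threshold of 0.05. Changes are log2 values with standard errors. The procedure was tested on simulated data. Paralog ratios were compared by exact permutation. Trend removal used splines (5 degrees of freedom each) on the GC content and length of the longest GENCODE release 29 transcript, over the 17557 genes that had one.

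Other settings were DESeq2's size factors, DESeq2 1.42.0, no filter on low counts, a floor of 50 counts in 3 libraries, a fit to the compared groups alone, replicate number as a block, scaling without mitochondrial genes and genes above 1% of counts, and leaving out each library. Subunits, lists, pairs and settings were chosen with earlier results of these data known. All 30 subunits are counted. Values per library are given for SMARCA4, SMARCA2 and, per contrast, up to 4 called subunits with the largest change in each direction and a mean of at least 1 CPM, and other chromatin genes by counts and up to 3 largest changes. BCL7A and some others are described beyond that rule.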

Additional observations from a re-analysis of the deposited data

Results flagged for a closer look

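The FX1 effect differed between GFP-low and GFP-high cells, by the edgeR interaction test, for 13 subunits, with differences (GFP-low minus GFP-high, log2) of 0.29 for SMARCC2, 0.24 for BICRA, 0.24 for BRD7, 0.23 for BRD9, 0.18 for SMARCA4, 0.17 for SMARCD2, 0.16 for SMARCB1, 0.14 for ARID1A, 0.14 for DPF2, 0.13 for ARID2, 0.13 for BCL7A, 0.12 for BCL11A and -0.14 for ACTL6A. Of these, SMARCC2, BRD7, BRD9, ARID2 and BCL11A held after the GC and length trend was removed. BCL11A, ARID2 and BCL7A lost the call without GFP-high DMSO replicate 1, 2 or 3 (adjusted p of 0.055 to 0.29), and SMARCB1 without replicate 1 or 2 (adjusted p of 0.068 and 0.053). DPF2 lost it without GFP-low FX1 replicate 2, GFP-low DMSO replicate 1, GFP-high FX1 replicate 1 or 3, or any GFP-high DMSO replicate (adjusted p of 0.052 to 0.44).

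The log2 ratio of ARID1A to ARID1B went in opposite directions with FX1, 0.11 in GFP-low and -0.08 in GFP-high cells, in every library. The difference between the gates was not tested.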

How the results depend on the processing

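Removing the GC and length trend moved the most. Of 140 changes of subunits over the 5 contrasts, 86 stayed on their side of the threshold without a sign change in a called value. In 30 the sign changed and the change was called with or without the trend. Sign changes with no call either way are among the 86 and are not listed. With FX1 in GFP-low cells the changed signs with a call were ACTL6A 0.01, PHF10 0.06, BCL7A -0.15, SMARCD2 -0.16, SMARCA4 -0.26, DPF1 -0.00 (-0.01 with the replicate block as well) and SMARCB1 -0.15. With FX1 in GFP-high cells they were ACTL6A 0.09, BRD9 -0.01, SMARCC2 -0.05, SMARCA4 -0.28 and SMARCB1 -0.17. Between gates under FX1 they were ARID1A -0.05, PHF10 0.15, BCL7B -0.21, SMARCA2 0.05, SMARCD1 -0.14 (-0.15 with the block), BCL7C -0.03, SMARCE1 0.17 (0.16 with the block), SMARCD2 -0.05, SMARCA4 -0.11, DPF1 -0.33 and SMARCB1 -0.24. Between gates under DMSO they were ARID1A -0.07, BCL7A -0.00, SMARCD2 -0.10, SMARCA4 -0.13 and BICRA -0.02, and in the comparison of the FX1 effect between gates PBRM1 0.10 and PHF10 0.20. The ratios between gates of SMARCA4 to SMARCA2 (-0.17) and BICRA to BICRAL (-0.40) changed sign too. With the trend removed, with or without the replicate block, 12 subunits were lower with FX1 in GFP-high cells, 8 were higher in GFP-low cells under FX1 and 5 under DMSO, and the difference of the FX1 effect was larger for 7 and smaller for 2. Apart from the trend, the count of smaller effects was 2 with DESeq2's size factors, in DESeq2 and without mitochondrial and dominant genes in the scaling. The last setting also moved the split of the difference over all genes from 2636 higher and 2947 lower to 2038 higher and 3622 lower. In each case the cause was not tested.

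Leaving out each library gave 17 to 18 subunits higher and 7 to 8 lower with FX1 in GFP-low cells, 12 to 14 and 6 to 7 in GFP-high cells, 14 and 8 to 9 between gates under FX1, and 7 to 9 and 9 to 11 under DMSO. The difference was larger for 6 to 12 and smaller for 1 to 2, and 7 to 9 (FX1) and 8 to 9 (gates) paralog ratios were called. The lowest count of larger differences came without GFP-high DMSO replicate 1 or 2, where the split over all genes moved as well. Libraries of the same number did not deviate together (r of -0.037 to 0.0177 over 18 pairs), so the number gives no pairing; as a block it changed 0 of the 140 calls. For paralog ratios, the replicate block left 0 called with FX1 and 0 between gates, since only 64 assignments remain and the smallest adjusted p is 0.058. The setting with only the groups compared gives no value for the difference. DPF3, with 46 to 121 counts per library, had standard errors of 0.17 with FX1 in each gate, no smaller than the size of its changes.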
